A study of Rattus norvegicus with 10 samples.

Results

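Toll-like receptors are the membrane receptors with which a cell recognises molecules of microbes and of damaged tissue. The family was taken as Tlr1 to Tlr10, and a member counted as measured where a probe set of the array carried its symbol and no other. Of these 10 genes, 8 were measured, with 1 probe set each, among 18166 genes tested in rat testis. They were Tlr1, Tlr2, Tlr3, Tlr4, Tlr5, Tlr6, Tlr7 and Tlr10. Tlr8 and Tlr9 were not analysed here.

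The arrays came from testes of sexually mature Zucker rats aged 14 weeks. The Zucker fa allele disables the leptin receptor, and fa/fa rats become obese. There were 4 arrays of normally developed testes from obese rats, 4 of under-developed testes from obese rats and 2 of normally developed testes from lean rats, and the labels name no agent given to the rats. The labels give the model as Zucker (fa/fa) for all 3 groups, and their protocol text speaks of obese rats also for the lean samples, so the genotype of the lean rats is not settled. Replicates are labelled biological, yet no label ties a testis to its own animal, and the p-values therefore measure only the spread between these samples.

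Cell-surface members of the family bind lipids and proteins of bacteria: Tlr4 binds lipopolysaccharide, Tlr2 binds lipoproteins in pairs with Tlr1 or Tlr6, and Tlr5 binds flagellin. Tlr3, Tlr7, Tlr8 and Tlr9 act in endosomes, where they bind nucleic acids, Tlr3 double-stranded RNA and Tlr7 single-stranded RNA. All but Tlr3 signal through the adaptor Myd88, while Tlr3 uses Ticam1 (TRIF) and Tlr4 uses both, and the signal reaches NF-kB and interferon regulatory factors. In the testis, macrophages of the interstitium carry these receptors, and Sertoli cells and Leydig cells are known to carry several of them too.

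The values are the deposited log2 expression values, and 1 unit is a 2-fold difference. They do not compare the level of one gene with that of another, since probe sets differ in how brightly they read. The deposited table carries no detection call, so whether a member with a low value lay above background is unknown. By their mean over all arrays, 6 of the 8 receptors lay below the 25th percentile of all genes, Tlr7 lay above it, and Tlr3 lay above the median. The number of arrays limits the precision of every value. Array medians ran from 6.14 to 6.24 on the normally developed arrays and from 6.26 to 6.38 on the under-developed ones, without overlap. The labelled tissue was borne out by its germ cells: spermatid markers averaged 12.28 to 12.34 on the 6 normally developed arrays.

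The under-developed testes were not alike, and this bears on every result below. Their mean correlation with the 6 normally developed arrays, over all genes, was 0.856, 0.946, 0.731 and 0.995 for replicates 1 to 4, and the library labelled under-developed replicate 4 resembled a normal testis. The median SD of a gene was 0.355 among the under-developed arrays and 0.102 among the normal obese arrays. The receptors are therefore given with all arrays and without replicate 4. The decision to give them without that array as well was made after the values were seen. Replicate 4 was left out for its likeness to the normal testes. The p-values and intervals without it are therefore too favourable, and the calls without it are descriptive. The limma fit below shares 1 spread per gene among all groups. For a gene that varied more among the under-developed arrays, the SE and p-value of their difference from normal testes tend to be too small. This holds with and without replicate 4.

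Averaged over under-developed replicates 1 to 3, 4 of the 8 measured receptors stood more than 2-fold above the normal obese testes. These were Tlr3, Tlr4, Tlr6 and Tlr7. In replicate 2 by itself, only Tlr3 stood that far above. Tlr3 was the furthest above, at 4.13-fold over the normal obese mean, and Tlr7, Tlr4 and Tlr6 followed at 2.77-fold, 2.53-fold and 2.31-fold. Tlr1, Tlr2, Tlr5 and Tlr10 differed by less than 2-fold and did not pass the test. Without replicate 4, limma called these 4 receptors higher and none lower at an adjusted p under 0.05, while 29.6% of all genes tested were called higher and 26.4% lower. With all 4 under-developed arrays no receptor passed, nor did any gene (0% of 18166), and the smallest adjusted p of any gene was 0.0702. At an unadjusted p under 0.05 the same fit had 8470 genes, of which 4425 were higher (24.4%), and the receptors among those higher were again Tlr3, Tlr4, Tlr6 and Tlr7. The 4 of 8 receptors called stand beside that 29.6% of all genes, and nothing particular to the family follows from the count.

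**Figure D1:**
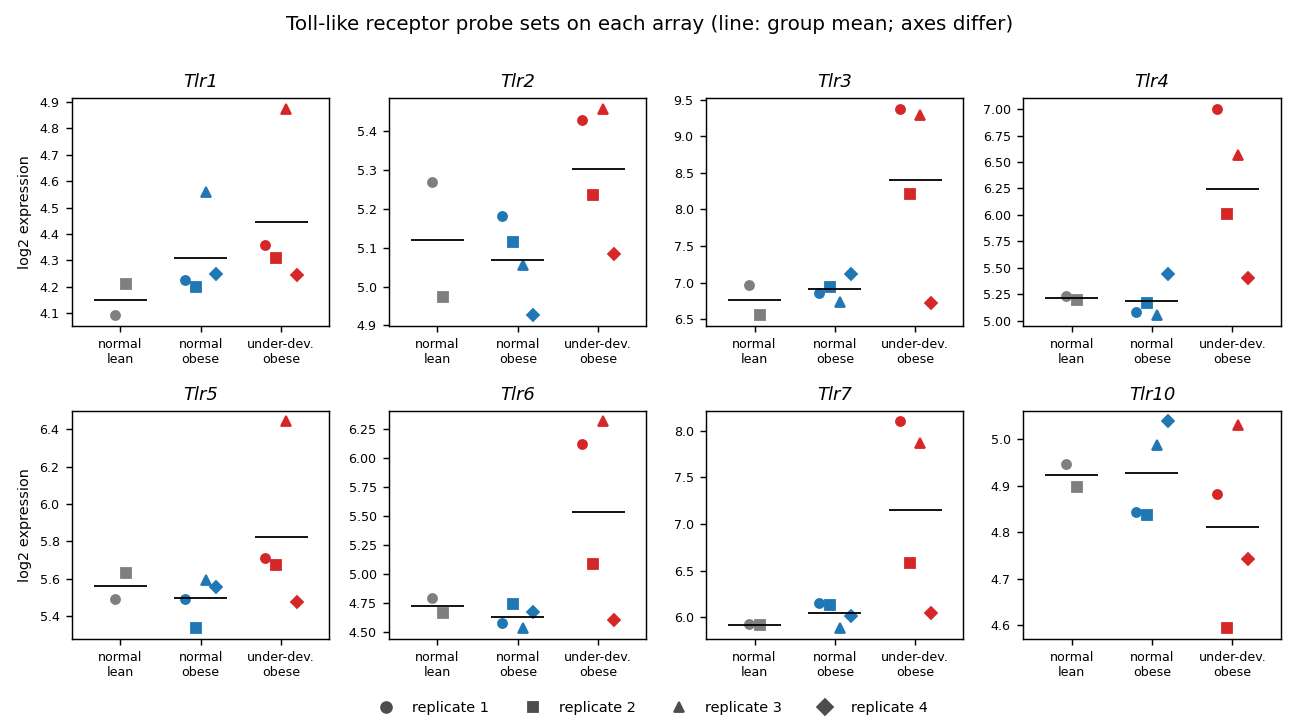
Log2 expression of the 8 measured Toll-like receptors on each of the 10 arrays, by group, with a symbol for each replicate number and a line at the group mean; the vertical axes differ between genes. For Tlr3, Tlr4, Tlr6 and Tlr7, under-developed replicates 1 to 3 lie above all 6 normal arrays and replicate 4 lies among them.

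The promoters of those 4 genes are shown because their transcripts moved together across the arrays. Each is the stretch from 250 bases before to 50 bases after the gene's start in RefSeq, assembly GRCr8, read 5′ to 3′ on the gene's strand. Capitals mark GGAA on either strand (read as TTCC when it lies on the opposite one), the core of sites for ETS factors such as PU.1, the master factor of macrophages.
Tlr3, chr16:53554666-53554965, plus strand: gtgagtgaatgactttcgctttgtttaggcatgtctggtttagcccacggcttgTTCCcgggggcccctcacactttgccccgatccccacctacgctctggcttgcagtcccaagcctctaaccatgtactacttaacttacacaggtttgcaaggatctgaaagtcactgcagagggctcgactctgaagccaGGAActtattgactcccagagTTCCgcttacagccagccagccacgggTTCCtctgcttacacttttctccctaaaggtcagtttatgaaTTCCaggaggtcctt
Tlr4, chr5:85160997-85161296, plus strand: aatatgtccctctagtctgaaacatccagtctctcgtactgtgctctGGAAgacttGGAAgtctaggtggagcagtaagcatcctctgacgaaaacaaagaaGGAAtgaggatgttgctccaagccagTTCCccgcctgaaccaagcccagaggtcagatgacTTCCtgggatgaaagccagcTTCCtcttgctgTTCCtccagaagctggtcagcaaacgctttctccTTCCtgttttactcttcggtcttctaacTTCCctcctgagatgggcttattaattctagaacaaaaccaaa
Tlr6, chr14:43715559-43715858, plus strand: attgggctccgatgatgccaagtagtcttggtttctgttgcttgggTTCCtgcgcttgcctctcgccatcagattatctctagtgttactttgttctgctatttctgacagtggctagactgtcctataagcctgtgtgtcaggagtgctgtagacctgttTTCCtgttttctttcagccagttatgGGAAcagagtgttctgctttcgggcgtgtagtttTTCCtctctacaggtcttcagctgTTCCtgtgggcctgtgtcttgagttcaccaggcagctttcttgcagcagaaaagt
Tlr7, chrX:30644176-30644475, plus strand: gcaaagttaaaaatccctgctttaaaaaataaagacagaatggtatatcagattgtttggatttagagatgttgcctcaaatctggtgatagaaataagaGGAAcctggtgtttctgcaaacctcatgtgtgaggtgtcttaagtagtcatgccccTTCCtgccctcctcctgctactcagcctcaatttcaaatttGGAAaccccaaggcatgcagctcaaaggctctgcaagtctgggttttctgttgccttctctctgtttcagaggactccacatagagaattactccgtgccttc
The core occurred 5 times in the Tlr3 window, 9 times in that of Tlr4, 5 times in that of Tlr6 and 3 times in that of Tlr7. It is a common motif: 95.8% of 33469 promoters of the same length held it, with a median of 3 matches. The Tlr4 window stood out, since 1.61% of promoters held at least as many matches, against 29.2% for Tlr3 and Tlr6 and 67.0% for Tlr7. Among the receptors that did not pass, Tlr2 had 5 matches, Tlr5 had 4, Tlr10 had 3 and Tlr1 had 2, so the count did not separate the groups of receptors. A match describes the letters and is not evidence that a factor binds there.

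Longer patterns were also searched on both strands of the same windows. A longer PU.1 form, GAGGAAGT, which contains the core above, occurred in 2.42% of promoters. A single narrow form of the NF-kB site, GGGANNTTCC, which contains the same core on the opposite strand, occurred in 1.3%. The AP-1 site TGAGTCA occurred in 4.63%, and GAAANNGAAA, the interferon-stimulated response element, in 3.92%. No window of the 8 measured receptors held any of them, and among all 10 members only Tlr9 held one, a single AP-1 match. This says only that these letters are not in these windows. Other forms of these sites were not searched, so their absence does not follow.

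Of the endosomal receptors, Tlr3 read 6.86, 6.94, 6.73 and 7.11 in the normal obese testes and 6.96 and 6.55 in the lean ones. In under-developed replicates 1 to 4 it read 9.38, 8.21, 9.29 and 6.72. Replicates 1 to 3 were thus far above every normal testis, and replicate 4 lay inside the range of the normal arrays. The group means were 6.91 ± 0.16 (SD, n = 4) for normal obese and 8.40 ± 1.24 (SD, n = 4) for under-developed testes, and the difference of 1.49 ± 0.52 (SE) did not pass limma's test (adjusted p = 0.0712). Without replicate 4 the difference was 2.05 ± 0.27 (SE; limma adjusted p = 0.000384), a 4.13-fold rise with a 95% interval of 2.69-fold to 6.36-fold.

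Tlr7, the X-linked sensor of single-stranded RNA, followed the same order with a smaller step in replicate 2. The normal obese testes read 6.15, 6.13, 5.88 and 6.02 and the lean ones 5.92 and 5.91. The under-developed testes read 8.10, 6.58, 7.87 and 6.05. Replicates 1 and 3 were more than 3-fold above the normal obese mean, replicate 2 was 0.53 above it on the log2 scale and replicate 4 was level with it. The difference was 1.10 ± 0.42 (SE; limma adjusted p = 0.0768) with all arrays and 1.47 ± 0.32 (SE; limma adjusted p = 0.00396) without replicate 4.

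Among the cell-surface receptors, Tlr4 read 5.08, 5.17, 5.05 and 5.45 in the normal obese testes and 5.23 and 5.19 in the lean ones. The under-developed testes read 7.01, 6.004, 6.57 and 5.41. Replicate 4 was within the normal range, at its upper end, and the other replicates did not overlap the normal testes. The difference was 1.06 ± 0.30 (SE; limma adjusted p = 0.0702) with all arrays and 1.34 ± 0.22 (SE; limma adjusted p = 0.000947) without replicate 4, a 2.53-fold rise with a 95% interval of 1.80-fold to 3.56-fold.

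Tlr6, which pairs with Tlr2 to bind lipopeptides carrying 2 acyl chains, read 4.58, 4.75, 4.54 and 4.67 in the normal obese testes and 4.79 and 4.67 in the lean ones. The under-developed testes read 6.12, 5.09, 6.32 and 4.61. Replicates 1 and 3 were far above the normal arrays, replicate 2 stood a little above them and replicate 4 was among them. The difference was 0.90 ± 0.35 (SE; limma adjusted p = 0.0795) with all arrays and 1.21 ± 0.26 (SE; limma adjusted p = 0.00398) without replicate 4.

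Its partner Tlr2 differed less. The normal obese testes read 5.18, 5.12, 5.05 and 4.93, the lean ones 5.27 and 4.97, and the under-developed ones 5.43, 5.24, 5.46 and 5.08. Only replicates 1 and 3 were above all 6 normal arrays. The difference of 0.23 ± 0.12 (SE; limma adjusted p = 0.169) became 0.31 ± 0.12 (SE; limma adjusted p = 0.0504) without replicate 4 and passed in neither fit.

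Tlr1, the other partner of Tlr2, and Tlr10, whose ligands are less well known, lie beside Tlr6 on chromosome 14. Tlr1 read 4.23, 4.20, 4.56 and 4.25 in the normal obese testes, 4.09 and 4.21 in the lean ones and 4.36, 4.31, 4.87 and 4.24 in the under-developed ones. Only replicate 3 was above the normal range, and the difference was 0.14 ± 0.16 (SE; limma adjusted p = 0.516) with all arrays and 0.21 ± 0.16 (SE; limma adjusted p = 0.312) without replicate 4. Tlr10 read 4.84, 4.84, 4.99 and 5.04 in the normal obese testes, 4.95 and 4.90 in the lean ones and 4.88, 4.59, 5.03 and 4.74 in the under-developed ones. The groups overlapped for Tlr10, and its difference was −0.11 ± 0.12 (SE; limma adjusted p = 0.465) with all arrays and −0.09 ± 0.12 (SE; limma adjusted p = 0.559) without replicate 4. Neither neighbour thus showed the rise of Tlr6, although the difference between neighbours was not tested.

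Tlr5, the flagellin receptor, was set apart by a single array. The normal obese testes read 5.49, 5.33, 5.59 and 5.55 and the lean ones 5.49 and 5.63. The under-developed testes read 5.71, 5.68, 6.44 and 5.47. Replicate 3 was 0.95 above the normal obese mean, while replicates 1 and 2 were above the highest normal testis by less than 0.1 on the log2 scale. The difference was 0.33 ± 0.20 (SE; limma adjusted p = 0.209) with all arrays and 0.45 ± 0.19 (SE; limma adjusted p = 0.0689) without replicate 4.

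**Figure D2:**
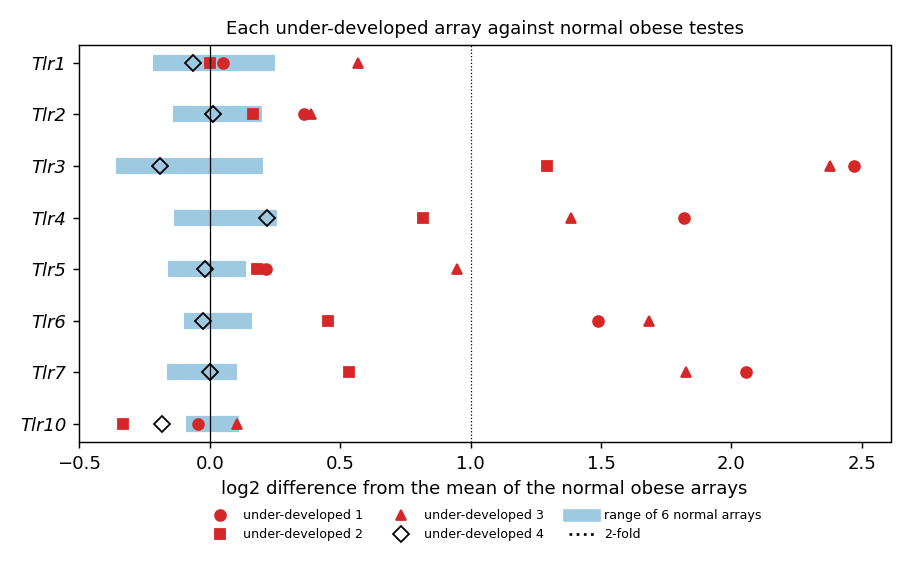
Log2 difference of each under-developed array from the average of the 4 normal obese arrays, for each receptor; the bar is the range of the 6 normally developed arrays and the dotted line marks 2-fold. Replicates 1 and 3 lie past 2-fold for Tlr3, Tlr4, Tlr6 and Tlr7, replicate 2 for Tlr3 alone, and replicate 4 for none.

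Read array by array, under-developed replicate 1 had 4 receptors at least 2-fold above the normal obese mean, where 15.5% of all genes were. Replicate 3 also had 4, against 19.2% of all genes, and in both arrays these were Tlr3, Tlr4, Tlr6 and Tlr7. Replicate 2 had 1, Tlr3, against 7.56%. Replicate 4 had 0, against 0.0385%, and its 8 differences ran from −0.19 for Tlr3 to 0.22 for Tlr4. For 5 receptors, the same 4 and Tlr5, replicates 1 to 3 all lay above the 6 normally developed arrays, as did 28.7% of all genes.

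The exact two-sided permutation test of the 4 under-developed against the 4 normal obese arrays cannot go below 0.0286. In this exact permutation test p = 0.0571 for Tlr4, p = 0.0857 for Tlr2, Tlr6 and Tlr7, p = 0.114 for Tlr5, p = 0.143 for Tlr3, p = 0.343 for Tlr10 and p = 0.486 for Tlr1. The smallest value that this test can reach after adjustment over all genes here was 0.16.

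The direction of the smaller differences depended on how the arrays were scaled. As deposited, the median difference of all genes without replicate 4 was 0.066. Centring each array on 53 ribosomal protein genes lowered every difference by the same 0.71, and centring on 19 Sertoli cell genes lowered every difference by 1.32, so that the median of all genes fell to −0.64 and −1.25. Tlr3 remained called higher under both, at 1.34 (limma adjusted p = 0.000697) and 0.73 (limma adjusted p = 0.00612). Tlr4, Tlr6 and Tlr7 were called higher under ribosomal centring, at 0.63, 0.50 and 0.76. Under Sertoli centring Tlr4 and Tlr7 were at 0.02 and 0.15, Tlr6 turned to −0.11, and none of these passed, with limma adjusted p-values of 0.903, 0.536 and 0.546. Tlr1, Tlr2 and Tlr5 turned below 0 under both. Tlr1, Tlr2 and Tlr10 were called lower under both, and Tlr5 under Sertoli centring only. Of all 18166 genes, ribosomal centring called 2287 higher and 12512 lower, and Sertoli centring 981 higher and 15663 lower.

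**Figure D3:**
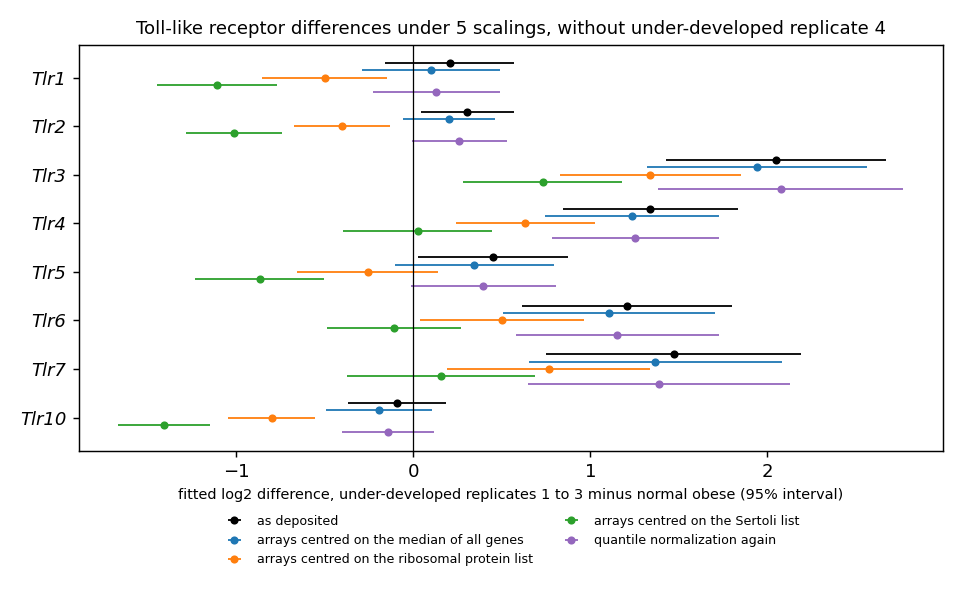
Fitted log2 difference with its 95% interval for each receptor, under-developed replicates 1 to 3 minus normal obese testes, under the deposited scaling and 4 others. Tlr3 lies above 0 under each of the 5 scalings, while Tlr1, Tlr2, Tlr5 and Tlr6 change side.

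Obesity without under-development was addressed by the normal testes of obese and lean rats. No receptor passed limma's test, and no gene did (0% of 18166). No receptor had an unadjusted p under 0.05 either, against 80 genes (0.44%). The receptor differences, obese minus lean, lay between −0.10 for Tlr6 and 0.16 for Tlr1. The intervals were wide. At 95% they were −1.28 to 1.59 for Tlr3, −0.86 to 0.81 for Tlr4, −1.05 to 0.86 for Tlr6 and −1.02 to 1.28 for Tlr7. There were only 2 lean arrays, and the fit shares 1 spread per gene among all groups. The spread among the under-developed arrays therefore widens these intervals too. For Tlr7 the SD was 0.124 in normal obese, 0.006 in lean and 0.995 in under-developed testes. For Tlr1, Tlr2 and Tlr10 the intervals lay within 0.60 on either side of 0. The exact permutation test of 4 against 2 arrays cannot go below 0.0667. The intervals of Tlr3 and Tlr7 hold a 2-fold difference in either direction, while that of Tlr6 holds a 2-fold lower but not a 2-fold higher level in obese rats.

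Against the lean testes, the under-developed testes gave differences of 1.64 for Tlr3, 1.23 for Tlr7, 1.03 for Tlr4 and 0.81 for Tlr6, beside 1.49, 1.10, 1.06 and 0.90 against the normal obese testes. Both comparisons share the under-developed arrays. No receptor and no gene (0%) passed limma's test, and the smallest adjusted p of any gene was 0.154. At an unadjusted p under 0.05, Tlr3, Tlr4 and Tlr7 were higher, as were 17.5% of all genes. Without replicate 4, limma called Tlr3 (2.20, adjusted p = 0.000955), Tlr4 (1.32, adjusted p = 0.00344), Tlr7 (1.60, adjusted p = 0.00798) and Tlr6 (1.11, adjusted p = 0.0166) higher than in the lean testes. That fit called 8866 of 18166 genes in either direction. The share called higher by itself is not given here, so nothing particular to the family follows from these calls.

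The proteins around the receptors were taken as lists: partners at the membrane, chaperones and proteases, adaptors, kinases, transcription factors, inhibitors and target genes. Of their 78 measured genes, limma called 50 higher and 5 lower without replicate 4, with a median difference of 0.68, beside 5381 higher and 4790 lower of 18166 genes overall. With all arrays it called none of the 78, of which 44 were higher and 3 lower at an unadjusted p under 0.05. By list, those higher were 3 of 5 co-receptors, 7 of 8 trafficking genes, 2 of 5 adaptors, 10 of 15 kinases, 10 of 13 transcription factors, 4 of 11 negative regulators, 8 of 18 targets and 0 of 3 other receptors. The 3 lower were a kinase list gene and 2 negative regulators. Every difference in the following account excludes replicate 4 and is on the deposited scale. Those under 0.71 therefore turn negative under ribosomal centring and those under 1.32 under Sertoli centring. Of all 18166 genes, ribosomal centring called 2287 higher and 12512 lower, and Sertoli centring 981 higher and 15663 lower. The counts of each list under these centrings stand beside those of all genes.

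All 5 measured co-receptors and ligand carriers were called higher. In replicate 2, however, Cd180 read 5.128, inside the range of the normal testes, 4.796 to 5.148. Ly86 and Lbp, which were named after their values were seen, also lay inside it there. Ly86 read 6.889 against 6.359 to 7.244, and Lbp 5.915 against 5.465 to 5.923. Ly96 (MD-2), which binds lipopolysaccharide with Tlr4, rose by 2.56 ± 0.28 (SE; limma adjusted p = 0.000161). Its values were 4.32, 4.49, 4.15 and 4.42 in the normal obese testes, 4.41 and 4.45 in the lean ones and 7.49, 6.12, 7.11 and 4.52 in the under-developed ones. Cd14, which hands lipopolysaccharide to Tlr4 and Ly96, rose by 0.87, and Cd180, a relative of Tlr4 found on B cells and macrophages, by 0.95. The list's median was 0.87. Under ribosomal centring 1 of the 5 was called higher and 1 lower, and under Sertoli centring 1 higher and 3 lower.

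Of 8 genes for receptor folding, trafficking and cleavage, 7 rose and 1 did not pass, with a median of 2.09. Unc93b1, which carries Tlr3 and Tlr7 to the endosome, rose by 1.55 ± 0.25 (SE; limma adjusted p = 0.000976). It read 6.003, 6.20, 5.91 and 6.09 in the normal obese testes, 5.97 and 5.71 in the lean ones and 7.87, 6.89, 8.04 and 5.78 in the under-developed ones. The lysosomal proteases Lgmn, Ctsb and Ctss, which cleave endosomal receptors among many other substrates, rose by 3.12, 2.80 and 2.54. Under ribosomal centring this list had 6 called higher and 1 lower, and under Sertoli centring 5 higher and 2 lower.

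Of 5 measured adaptors, 4 rose, by small amounts. Myd88 rose by 0.50, Tirap, which brings Myd88 to Tlr2 and Tlr4, by 0.40, and Ticam2, which brings Ticam1 to Tlr4, by 0.80. Myd88 read 8.49, 7.76, 8.43 and 7.64 in the under-developed testes and 7.54 to 7.81 in the normal ones, so replicate 2 lay inside the normal range. Ticam1, the adaptor of Tlr3, was not analysed here. Under ribosomal centring 0 adaptors were called higher and 2 lower, and under Sertoli centring all 5 were called lower.

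Of 15 measured kinases and ubiquitin ligases, 11 rose and 1, Ube2n, fell. Irak1, the kinase that Myd88 recruits, rose by 1.23, and Ikbkb and Ikbkg, a catalytic and the regulatory subunit of the IkB kinase, by 1.55 and 1.52. Ube2n, a ubiquitin-conjugating enzyme that works with Traf6 and was singled out after its values were seen, fell by 0.53. Of 13 transcription factors 11 rose, led by Nfkb1 at 2.90 ± 0.25 (SE; limma adjusted p = 7.6e-05), Irf1 at 1.96 and Nfkb2 at 1.89. Nfkb1 read 9.43, 8.37, 9.52 and 6.12 in the under-developed testes, against 6.10 to 6.40 in the normal ones. Under ribosomal centring the kinases had 4 called higher and 4 lower and the transcription factors 5 higher and 1 lower. Under Sertoli centring the kinases had 0 higher and 11 lower and the transcription factors 4 higher and 8 lower.

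Of 11 negative regulators, 4 rose, 2 fell and 5 did not pass. Nfkbia, the NF-kB inhibitor that is itself an NF-kB target, rose by 2.65, and Irak3, an inhibitory relative of Irak1, by 1.97. Dusp1, a phosphatase of MAP kinases, rose by 1.01. The 2 that fell, Tollip and Nfkbib, were named after their values were seen and fell by 0.59 and 0.71. The balance of the list turned with the scaling, to 2 higher and 6 lower under ribosomal and 2 higher and 9 lower under Sertoli centring.

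Of 18 inflammatory and interferon targets, 7 rose, 1 fell and 10 did not pass, with a median of 0.25. Ccl2, which attracts monocytes, rose by 1.82 ± 0.37 (SE; limma adjusted p = 0.00295), Icam1 by 1.45 and Cxcl10 by 1.10. Ccl2 read 8.23, 6.32, 7.07 and 5.36 in the under-developed testes and 5.24 to 5.59 in the normal ones. Tnf was at 0.32 (limma adjusted p = 0.111), Il1b at 0.22 (limma adjusted p = 0.295), Il6 at 0.13 (limma adjusted p = 0.226) and Ifnb1 at −0.12 (limma adjusted p = 0.446). The last 3 cytokines and Ccl4, which fell by 0.58, were singled out after their values were seen. Under ribosomal centring 3 targets were called higher and 9 lower, and under Sertoli centring 0 higher and 15 lower.

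The other rodent receptors did not move together. Tlr13, an endosomal receptor for bacterial ribosomal RNA, rose by 0.88 ± 0.27 (SE; limma adjusted p = 0.0233), with 5.82, 4.66, 5.81 and 4.06 in the under-developed testes against 4.27 to 4.77 in the normal ones. It was high in replicates 1 and 3 only, and in replicate 4 it was below every normal testis. Tlr12 fell by 0.34 and Tlr11 was at 0.10 (limma adjusted p = 0.611). Under ribosomal and under Sertoli centring, 0 of the 3 were called higher and 2 lower.

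The receptors were measured in whole testis, where fewer germ cells, more cells of another type and more RNA per cell cannot be told apart. Macrophage markers were higher on the same arrays. Of 10 markers 7 rose and 2 fell without replicate 4, and their mean level was 8.12 to 8.69 in replicates 1 to 3, 7.27 in replicate 4 and 7.07 to 7.51 in the normal testes. Cd68, a lysosomal protein of macrophages, was 2.55, 1.64, 2.99 and −0.21 above the normal obese mean in replicates 1 to 4. The 2 that fell, Aif1 and Cx3cr1, were named after their values were seen and fell by 1.25 and 0.93. With all arrays 7 were higher and 2 lower at an unadjusted p under 0.05 and 0 were called. Without replicate 4, ribosomal centring gave 6 higher and 3 lower and Sertoli centring 4 and 4. Their part in the receptor differences was not tested.

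Markers of the somatic cells of the testis were called without replicate 4 as well. Sertoli markers had 6 higher and 1 lower of 8, Leydig markers 4 higher of 6, peritubular myoid markers 3 of 3 and endothelial markers 4 of 4, with medians from 1.17 to 1.60. Spermatid markers had 8 of 8 lower, with medians of −2.68, −0.80, −4.26 and −0.03 in replicates 1 to 4, and spermatocyte markers 6 of 7 lower. Of other blood cells, neutrophil markers had 0 higher and 1 lower of 5, dendritic cell markers 0 higher and 1 lower of 4, mast cell markers 0 called of 4 and lymphocyte markers 3 higher and 1 lower of 8. Epididymis markers had 0 called of 4, adipocyte markers 2 higher and 2 lower of 5, and the single red blood cell marker was not called. Under ribosomal centring lymphocyte, neutrophil and dendritic cell markers each had 0 higher and 4 lower, mast cell markers 0 higher and 3 lower and Sertoli markers 5 higher and 1 lower. Leydig, myoid and endothelial markers each had 2 higher and 0 lower there. Under Sertoli centring lymphocyte markers had 0 higher and 7 lower, neutrophil markers 0 and 5, mast cell markers 0 and 4, Leydig and endothelial markers 1 and 2 each and myoid markers 1 and 0. Spermatid markers had 8 of 8 lower under each of the 5 scalings. Of all genes, 29.6% were called higher and 26.4% lower as deposited without replicate 4. Most genes were called lower under ribosomal and under Sertoli centring. With all arrays 0 markers of any list were called. The part of any of these cells in the receptor differences was not tested.

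**Figure D4:**
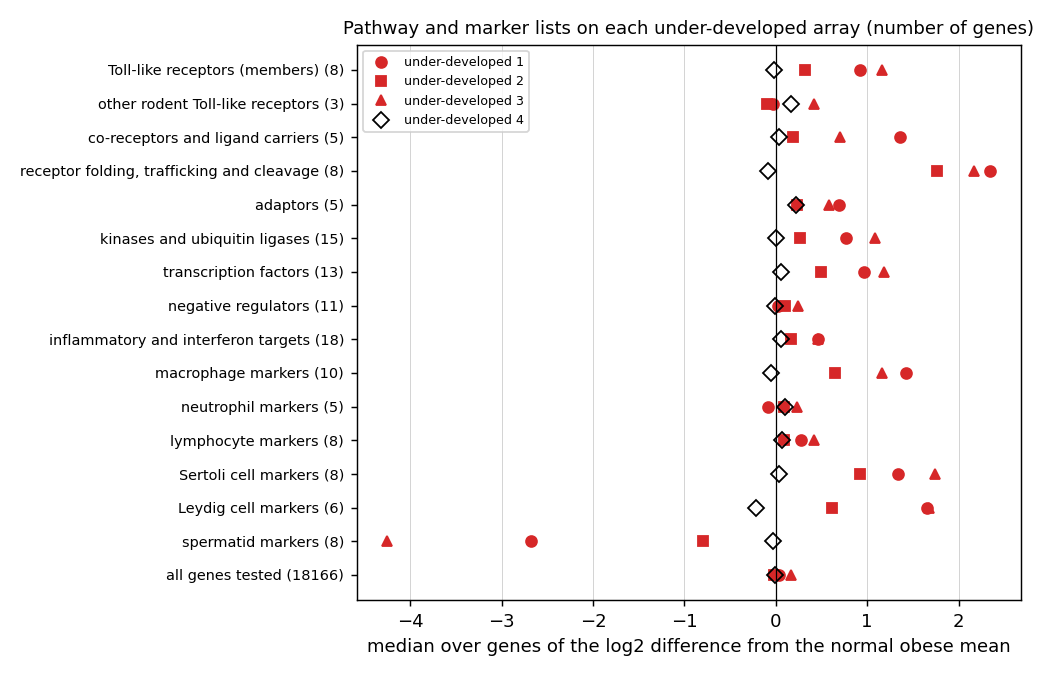
Median over the genes of each list of the log2 difference from the normal obese mean, for each under-developed array, with the number of measured genes in brackets. The trafficking and cleavage list reaches 2.35 in replicate 1, the spermatid list reaches −4.26 in replicate 3, and among the lists drawn replicate 4 runs from −0.22 for Leydig markers to 0.22 for adaptors.

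The genes whose pattern over the 10 arrays was most like that of each receptor were found by Pearson correlation among the genes tested. Symbols that start with LOC, RGD, Olr, Mir or AABR were left out of this ranking. These values describe arrays of which under-developed replicates 1 to 3 stand apart, so any gene with the same order of those arrays scores high. For Tlr3 they were Fah (r = 0.996), Dpy19l3 (r = 0.996) and Pla2g2d (r = 0.995). For Tlr4 they were Slc39a9 (r = 0.990), Armc10 (r = 0.989) and Tnxa-ps1 (r = 0.987). Tlr6 was nearest to Tmem178a (r = 0.996), Nr1d1 (r = 0.995) and Folr1 (r = 0.994), and Tlr7 to Otub1 (r = 0.997), Wdr3 (r = 0.996) and Shisa5 (r = 0.996).

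The remaining receptors had less close neighbours, except Tlr5. Tlr5 was nearest to Pkd1 (r = 0.993), which was also highest in replicate 3, Thumpd2 (r = 0.991) and Vps13d (r = 0.981). Tlr2 was nearest to Hcst (r = 0.968), a signalling adaptor of lymphoid and myeloid cells, Nipsnap1 (r = 0.961) and Vav3 (r = 0.961). Tlr1 was nearest to Scrt2 (r = 0.923), Srsf6 (r = 0.922) and Depp1 (r = 0.920), and Tlr10 to Otoa (r = 0.926), Gzf1 (r = 0.921) and Drg1 (r = 0.916).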

How the data were processed

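Total RNA of 10 testis samples was hybridised to Affymetrix arrays, 1 array per sample, with groups taken from the sample titles. The authors deposited log2 values per probe set, summarised with RMA per the submitters' processing notes; no version, setting or genome build is given in the sources used here. RMA normalizes between arrays, which sets a tissue's changes relative to the other genes.

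Of 36685 probe sets, 18511 carried 1 symbol in the platform annotation, 575 several, and 17599 were unnamed here; 18394 matched RefSeq by gene number. Per gene the probe set with the highest mean was kept (18166 genes), dim ones included. Differences were fitted with limma 3.58.1 (R 4.3.3, lmFit and eBayes) in 1 fit of all arrays. Benjamini-Hochberg adjustment was over all genes, with a threshold of 0.05. The fit was tested on simulated data in which every group had the spread of the normally developed arrays. The wider spread of the under-developed arrays was therefore not simulated. Exact permutation tests were run in R as well. Summaries and plots used Python 3.11.15, pandas 2.3.3, numpy 2.4.6, scipy 1.17.1 and matplotlib 3.10.9. Alternatives changed the scaling, an offset of 50 before log2, dim filters, probe set averaging, moderation, weights, the samples fitted and the replicate block. Alternatives combined with the omission of under-developed replicate 4 were chosen after seeing the data.

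The members and gene lists were chosen with earlier results of these data known. The text names all measured members, and the first gene and the 3 with the largest difference of each pathway list. It also names the first gene of a marker list where one is named. The 3 genes most correlated with each member are named too, leaving out symbols that start with LOC, RGD, Olr, Mir or AABR. Genes outside this rule are said to be so. A planned comparison of the proteins was not run.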

Additional observations from a re-analysis of the deposited data

Results flagged for a closer look

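Among the receptors, 16 groups of 4 arrays were examined for an array far from the others, and chance alone marks about 1 in 20 such groups. One was marked: Tlr1 in the normal obese testes, where replicate 3 read 4.56 and the other arrays 4.20 to 4.25. The gap to the nearest array was 0.86 of the group's range, above Dixon's 95% critical value for 4 arrays. Tlr1 was also highest in replicate 3 of the under-developed testes, at 4.87.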

How the results depend on the processing

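The main limits are the 4 and 2 arrays per group, the spread among the under-developed testes and the unknown detection of dim probe sets. For under-developed against normal obese testes, 19 of 22 alternatives also called 0 receptors. The same alternatives called 0 genes, so this says nothing particular about the receptors. Sertoli centring called 4, all lower (genes: 13199, 366 higher and 12833 lower), and array weights called 4, all higher (9862 genes). Leaving out each array in turn gave 0 to 4 receptors and 0 to 10171 genes, with the highest without under-developed replicate 4 and 0 in each other case. Ribosomal and Sertoli centring turned Tlr1 (−0.36, −0.85), Tlr2 (−0.27, −0.76) and Tlr5 (−0.17, −0.66), and Sertoli centring turned Tlr6 (−0.094). Tlr1 ranged from −0.004 to 0.222 when single arrays were left out. Against lean testes, array weights called 4 receptors and 9620 genes. Single omissions gave 0 to 4 receptors and 0 to 8866 genes, the highest again without under-developed replicate 4. The same centrings gave Tlr1 −0.30 and −0.74, Tlr2 −0.42 and −0.85, Tlr5 −0.33 and −0.77 and, for Sertoli centring, Tlr6 −0.23.

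Between normal obese and lean testes, array weights and the fit of those groups alone each called 1 gene and 0 receptors. Receptor differences there were near 0 and changed sign easily. Single omissions gave −0.20 to 0.096 for Tlr2, −0.053 to 0.361 for Tlr3, −0.11 to 0.021 for Tlr4, −0.137 to 0.004 for Tlr5 and −0.033 to 0.035 for Tlr10. Tlr4 was 0.004 after quantile normalization again. Tlr10 was −0.011, −0.097 and −0.034 under median, ribosomal and Sertoli centring. With the replicate block, Tlr2 was 0.003, Tlr4 0.075 and Tlr10 −0.076.

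Without under-developed replicate 4, ribosomal centring called 7 receptors (4 higher, 3 lower) and Sertoli centring 5 (1 higher, 4 lower). The genes called were 2287 higher and 12512 lower under ribosomal centring, 981 higher and 15663 lower (16644) under Sertoli centring, 4490 and 5411 under median centring, and 6218 in all with array weights. Centring turned Tlr1 (−0.50, −1.11), Tlr2 (−0.40, −1.01) and Tlr5 (−0.26, −0.87), and Sertoli centring Tlr6 (−0.11). Leaving out a further array gave 4 to 6 receptors and 9057 to 11248 genes, and Tlr10 ran from −0.19 to 0.029. Apart from the centrings and omissions, the cause of these changes was not tested.

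Whether the replicate numbers pair the testes is not given by the labels. Deviations of same-numbered normal obese and under-developed arrays correlated at 0.077, 0.007, 0.024 and 0.26. Those of differently numbered arrays correlated at −0.289 to 0.191. The deviations also carry the spread among the under-developed testes, so these values cannot settle the pairing. With the replicate block, 0 receptors and 0 genes were called with all arrays, and 4 receptors and 8684 genes without under-developed replicate 4. A filter on dim genes at the 25th percentile kept only Tlr3 and Tlr7 of the receptors, and one at the median kept only Tlr3, so the others have no value there.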
